A study of Sus scrofa with 32 samples.

Results

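Leukocyte chemoattractant receptors are G-protein-coupled receptors that steer immune cells along gradients of chemokines or lipids. The 8 receptors CCR9, CCR6, CXCR3, CXCR4, CXCR5, CXCR6, CX3CR1 and GPR183 were followed here through the porcine ileum and blood, as 8 of the 25880 genes measured. They were chosen by their symbols, with earlier results of these data known. Cells came from 2 mixed-breed pigs of 7 weeks, a female (pig 1) and a male (pig 2), untreated as far as the labels say. Each pig gave 3 ileal dissections, one rich in Peyer's patches (PP), one lacking them (non-PP) and one across the entire gut ring (whole ileum), and peripheral blood mononuclear cells (PBMC), which made 8 droplet libraries of single-cell 3' RNA counts. Ileal cells had passed through DTT, EDTA, warm enzymatic digestion, a Percoll step and dead-cell removal, whereas blood cells had not, so tissue and preparation cannot be told apart in any ileum-blood difference below. Each of the 8 libraries was deposited as several sequencing runs and was counted once, and the animal was the replicate, with 2 per group.

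CCR9 binds CCL25 from small-intestinal epithelium and is the classical gut-homing receptor, CCR6 binds CCL20, and CXCR6 binds CXCL16 and marks many tissue-resident lymphocytes. CXCR3 binds the interferon-induced chemokines CXCL9, CXCL10 and CXCL11, and CX3CR1 binds membrane-anchored CX3CL1 and is typical of circulating cytotoxic lymphocytes and of monocytes. CXCR4 (ligand CXCL12), CXCR5 (ligand CXCL13) and GPR183, a receptor for oxysterols made by CH25H and CYP7B1, place B cells, follicular helper T cells and innate lymphoid cells within lymphoid tissue.

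The libraries held 21134542 to 40111934 unique molecular identifiers (UMIs, each standing for 1 captured RNA molecule). Of their barcodes, 48629 passed the study's minimum UMI number, its minimum of 550 genes and its limit on the mitochondrial share, with 3776 to 7704 cells a library and median depths of 2577.5 to 3583.5 UMIs. Gates on summed marker UMIs, none of which used the 8 receptors, took in 22422 T cells, 18112 B cells, 694 innate lymphocytes without CD3 or TRDC UMIs, and 1391 myeloid cells. A pair of libraries shared 21 to 80 cell barcodes, where 20 to 76.7 would be shared by unrelated libraries of these sizes. The library labelled whole ileum of pig 1 went against its label. Its Y-linked genes summed to 206.6 CPM (UMIs per 1000000 UMIs), against 0 to 0.224 CPM in the other libraries of this female pig. The tests were therefore also run without both whole ileum libraries, and the calls lost by this are named. Of T-gated cells, 74.5% (non-PP pig 2) to 95% (non-PP pig 1) held a CD3E UMI, and gates that required CD3E were therefore added after seeing the data. They raised the innate gate from 694 to 2836 cells, since cells with CD3D or CD3G but no CD3E UMI could then enter it. Entry under these gates also required a CD2 UMI and no UMI of TRDC, CD4 or CD8B. The main innate gate held 307 ileal and 387 blood cells, fewer than the innate lymphoid cells the paper counts in either tissue. The paper states that group 1 innate lymphoid cells expressed CD3G, so such cells could fall in the T gate instead. Intervals on counts and shares cover counting error only.

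In the Sscrofa11.1 assembly, RefSeq places CCR9 on chromosome 13 at 29033609 to 29051227 and CXCR6 close by at 29095900 to 29100666, with CX3CR1 on the same chromosome at 23944386 to 23957567. CCR6 lies on chromosome 1 (2016600 to 2034172), CXCR3 on chromosome X (57592032 to 57595706) and CXCR4 on chromosome 15 (15663652 to 15666706). CXCR5 is on chromosome 9 (46134243 to 46146638) and GPR183 on chromosome 11 (68231851 to 68248627).

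The receptors moved in different directions between gut and blood. In ileal T cells CCR9, CXCR6, CXCR4, CXCR5 and GPR183 were higher than in blood T cells and CX3CR1 was lower, which made 6 of the 7 receptors tested, against 21.8% of all genes tested in this gate. In B cells CXCR4 and CXCR6 were higher in the ileum and CX3CR1, CCR9 and CXCR5 lower, 5 of 7 against a background of 34.4%. Innate lymphocytes had CXCR4 and GPR183 higher and CX3CR1 lower in the ileum, 3 of 7 against 7.17%. Myeloid cells had CCR9, CXCR4, CXCR5, CXCR3 and GPR183 higher and none lower, 5 of 7 against 23.9% in either direction and 12.8% called higher. These shares of members lay above the background in each gate. The receptors were chosen with earlier results of these data known, so this excess is a description only. In myeloid cells, however, the ileal levels of 4 of the 5 were no higher than in free RNA, the RNA outside cells that barcodes of 10 to 100 UMIs mostly hold. CCR9, with 12.9 and 6.09 CPM, CXCR4, with 68.4 and 89.8 CPM, and CXCR3, with 14.8 and 15.2 CPM, lay below the free RNA of every ileal library, and CXCR5, with 1.85 and 4.57 CPM, lay within its range of 0 to 14.9 CPM. Whether these 4 reflect expression by myeloid cells or free RNA was not tested. The innate and myeloid gates also held different mixtures in gut and blood. At least 2 UMIs of GNLY, GZMB and PRF1 were held by 186 of 202 and 171 of 185 blood innate cells. In PP these were 11 of 45 and 19 of 64, and in non-PP 30 of 31 and 46 of 48. At least 2 UMIs of C1QA, C1QB and C1QC were held by 2 of 275 and 11 of 867 blood myeloid cells, against 30 of 57 and 16 of 43 in PP. The part of these mixtures was not tested. CCR6 was too sparse to be tested in any gate. These calls used UMI sums per gate, tissue and pig, edgeR's quasi-likelihood test and an adjusted p (Benjamini-Hochberg) below 0.05 over 11246 genes. Of the 28 tests, 19 were called, and 16 without the whole ileum libraries, 21 with the CD3E gates and 14 when either pig's ileum was left out.

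**Figure D1:**
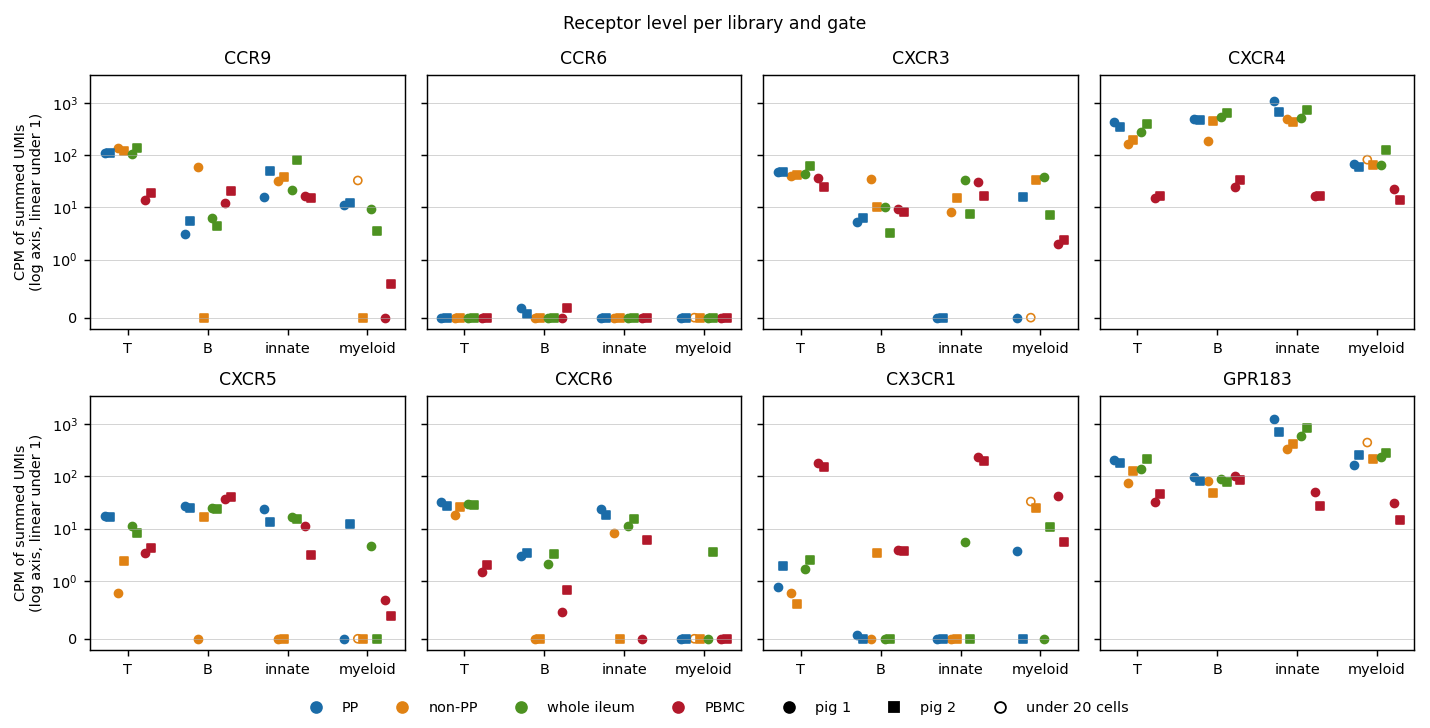
Level of each receptor (vertical axis, CPM of summed UMIs, log scale, linear under 1) in T, B, innate and myeloid cells, with 1 point per library, colour for PP, non-PP, whole ileum or PBMC, shape for the pig and hollow points for under 20 cells. CX3CR1 in T cells is at 148 and 177 CPM in blood and at no more than 2.45 CPM in the ileum, while CXCR4 runs the other way, at 164 to 430 CPM in ileal T cells and 15.4 and 16.4 CPM in blood.

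Under the main gates CCR9 was highest in T cells of the ileum and rose there over blood. Ileal innate lymphocytes held 23.1 and 55.0 CPM under these gates, not called against the other ileal gates. Under the CD3E gates they exceeded the mean of the other ileal gates in CCR9 (1.53, edgeR adjusted p = 0.000268). That innate gate admitted cells with CD3D or CD3G UMIs, so T cells without a CD3E UMI could be among them. Their part in this excess was not tested. The paper also reports raised CCR9 in some innate lymphoid cells. The CCR9 level of T cells over the 6 ileal libraries was lowest at 105, median 115 and highest at 137 CPM. In the blood libraries it was 13.8 CPM (pig 1) and 18.7 CPM (pig 2). The ileal and blood ranges did not overlap, and all 3 dissections lay together. Ileal T cells, with 119 and 120 CPM per pig, exceeded blood T cells by 2.89 ± 0.27 on the log2 scale (SE, edgeR adjusted p = 4.27e-06). The share of T cells with a CCR9 UMI was 19.8% to 24.2% in the ileum and 3.24% and 5.41% in blood, and after each cell was thinned to the minimum UMI number it was 10.0% to 14.6% against 1.44% and 2.10%. Free RNA held 24.3 to 43.8 CPM of CCR9 in the ileum and 6.81 and 10.0 CPM in blood.

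B cells showed the opposite for CCR9. Ileal B cells held 4.54 CPM (pig 1) and 4.88 CPM (pig 2) and blood B cells 12.2 and 20.2 CPM, without overlap of these sums, a log2 difference of -1.91 ± 0.29 (edgeR adjusted p = 0.000154). By library, non-PP pig 1 lay above both blood libraries, at 58.9 CPM on 10 UMIs in 31 cells, and non-PP pig 2 stood at 0. The difference between T and B cells in the ileum-blood contrast was tested too and passed, at 4.80 ± 0.39 (edgeR adjusted p = 4.24e-06). In antibody-secreting cells (ASC), the class of B-lineage cells that secretes IgA in the gut, CCR9 stood at 66.0 and 52.6 CPM in blood, where 24.3% and 27.0% of the 37 ASC of each library held a UMI, and at 5.28 to 23.4 CPM in the 4 ileal libraries with at least 20 ASC. The blood ASC thus lay above every one of those ileal libraries, as a description without a test. In innate lymphocytes CCR9 was 23.1 and 55.0 CPM in the ileum and 16.5 and 15.3 CPM in blood, which did not pass (1.45 ± 0.50, edgeR adjusted p = 0.11), while under the CD3E gates it did (4.98, edgeR adjusted p = 6.62e-06), as it did with DESeq2, with no filter on low counts and with doublets removed. The myeloid call (4.47, edgeR adjusted p = 0.00346) rested on 11 ileal and 3 blood UMIs, a ratio of 20.3 with a counting interval of 5.37 to 114, and its edgeR adjusted p was 0.0682 without ileal pig 1 and 0.423 in thinned cells.

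CXCR6 was likewise higher in ileal T cells. Ileal libraries ran from 18.1 through a median of 27.5 to 32.2 CPM in T cells, against 1.44 and 2.03 CPM in blood, with no overlap (3.90 ± 0.36, edgeR adjusted p = 6.43e-06). In B cells the level was low everywhere, 2.65 and 3.31 CPM in the ileum and 0.464 and 0.841 CPM in blood, and the difference of 2.06 ± 0.52 (edgeR adjusted p = 0.0076) was lost with either ileal pig left out (edgeR adjusted p up to 0.111) and in thinned cells (0.058). Innate lymphocytes had 13.9 and 12.2 CPM in the ileum and 0 and 6.11 CPM in blood, not called at 2.09 ± 0.81 (edgeR adjusted p = 0.163) but called under the CD3E gates at 4.48 (edgeR adjusted p = 2.33e-05). Myeloid cells held 1 CXCR6 UMI in the ileum and 0 in blood, so no fold is given. Free RNA held 8.75 to 33.5 CPM of CXCR6 in the ileum and 1.28 and 1.43 CPM in blood. In the ileum this was above the level of B cells and around that of T cells, and its part in either was not tested.

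CXCR3 passed between tissues in myeloid cells only. T cells held 42.8 and 47.7 CPM in the ileum and 36.0 and 24.8 CPM in blood, both ileal values lying above both blood values. The difference of 0.58 ± 0.23 did not pass (edgeR adjusted p = 0.0855), although it did with the pig as a replicate block (0.61, edgeR adjusted p = 0.0127), with no filter on low counts and in thinned cells. In B cells the block likewise turned an uncalled decrease of -0.71 ± 0.27 (edgeR adjusted p = 0.0569) into a call (-0.72, edgeR adjusted p = 0.0176), with 7.12 and 4.71 CPM in the ileum and 9.27 and 8.24 CPM in blood. Both block calls were lost when the whole ileum libraries were also left out (edgeR adjusted p = 0.094 and 0.0979). Myeloid CXCR3 was 14.8 and 15.2 CPM in the ileum against 1.99 and 2.34 CPM in blood, on 18 and 15 UMIs (2.88 ± 0.56, edgeR adjusted p = 0.00209), and the call was lost without the whole ileum libraries (edgeR adjusted p = 0.0705) and in thinned cells (0.199). Free RNA of CXCR3 was 17.2 to 28.3 CPM in the ileum and 19.2 and 12.9 CPM in blood. It lay above the myeloid and B cell levels given here in both tissues, and its part was not tested.

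CXCR4, which retains lymphocytes in CXCL12-rich niches, was called higher in every gate. T cells had 273 and 281 CPM in the ileum and 15.4 and 16.4 CPM in blood (4.13 ± 0.22, edgeR adjusted p = 4.78e-08). B cells had 505 and 555 CPM against 24.6 and 33.8 CPM (4.04 ± 0.22, edgeR adjusted p = 2.12e-08). In each of these gates every ileal library stood above both blood libraries. Innate lymphocytes rose from 16.5 and 16.8 CPM in blood to 677 and 626 CPM in the ileum (5.40 ± 0.28, edgeR adjusted p = 2.13e-07), and myeloid cells from 22.5 and 13.6 to 68.4 and 89.8 CPM (2.38 ± 0.26, edgeR adjusted p = 2.2e-05). All 4 rises kept their call with any pig and tissue left out. Free RNA moved with CXCR4, at 118 to 415 CPM in ileal barcodes of 10 to 100 UMIs and 24.3 and 27.2 CPM in blood, and its part in the result was not tested.

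GPR183 rose in ileal T cells, innate lymphocytes and myeloid cells but was at like levels in B cells of both tissues. T cells held 130 and 161 CPM in the ileum and 32.5 and 45.7 CPM in blood (1.90 ± 0.26, edgeR adjusted p = 0.000142). Innate lymphocytes held 708 and 656 CPM in the ileum and 49.6 and 27.5 CPM in blood (4.29 ± 0.33, edgeR adjusted p = 3.59e-06). These groups lay wholly apart, the ileal innate gate being the highest of all under the main gates. Under the CD3E gates the innate excess over the other ileal gates was not called (0.18, edgeR adjusted p = 0.731). Myeloid GPR183 was 222 and 259 CPM in the ileum and 30.4 and 14.8 CPM in blood (3.68 ± 0.32, edgeR adjusted p = 3.03e-06). B cells held 95.2 and 77.9 CPM in the ileum and 101 and 83.8 CPM in blood, which overlapped (-0.23 ± 0.25, edgeR adjusted p = 0.522). Free RNA of GPR183 was 26.8 to 90.8 CPM in the ileum and 21.7 and 27.2 CPM in blood, and its part was not tested.

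CXCR5, the follicle-homing receptor, moved in opposite directions in T and B cells. T cells had 8.65 and 7.71 CPM in the ileum and 3.37 and 4.27 CPM in blood (1.11 ± 0.23, edgeR adjusted p = 0.00343). B cells had 26.1 and 23.7 CPM in the ileum and 37.1 and 39.4 CPM in blood (-0.76 ± 0.20, edgeR adjusted p = 0.0104). Neither pair of pig sums overlapped, although T cells of the non-PP libraries lay below blood, at 0.791 and 2.4 CPM. Free RNA of CXCR5, at 0 to 14.9 CPM in the ileum and 5.53 and 5.72 CPM in blood, spanned the T cell levels of the ileum, and its part there was not tested. The B cell decrease was lost without the whole ileum libraries (-0.64, edgeR adjusted p = 0.0938), and with either ileal pig left out the edgeR adjusted p reached 0.093 in T cells and 0.141 in B cells. The myeloid call rested on 4 ileal and 3 blood UMIs, a ratio of 7.39 with a counting interval of 1.25 to 50.5, and failed without the whole ileum libraries (edgeR adjusted p = 0.0769).

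CX3CR1 was almost wholly a transcript of blood. T-gated cells held 177 and 148 CPM in blood and 1.12 and 1.38 CPM in the ileum. A UMI was held by 40.9% and 31.8% of them in blood against 0.121% to 0.51% in the ileum. In the blood T gate 85.6% and 74.6% of cells held a CD3E UMI, so innate lymphocytes with CD3D or CD3G UMIs could be among them. Their part in this level was not tested. Free RNA of the ileum held 0.544 to 2.84 CPM, and the level over all ileal T cells lay within that range, while CD4 T cells of non-PP pig 2, with 3 UMIs, stood at 12.2 CPM. The log2 difference was -7.01 ± 0.60 (edgeR adjusted p = 1.83e-06). Innate lymphocytes followed, with 125 and 128 UMIs in blood (230 and 195 CPM) and 1 and 0 in the ileum, a blood-to-ileum ratio of 195 with a counting interval of 34.6 to 7724 (edgeR adjusted p = 0.000959, and 0.0652 without ileal pig 2). B cells held 25 and 22 UMIs in blood and 1 in each pig's ileum, a blood-to-ileum ratio of 116 with an interval of 30.4 to 988 (edgeR adjusted p = 0.000351). Blood free RNA of CX3CR1 stood at 75.8 CPM (pig 1) and 55.4 CPM (pig 2). It lay above the blood levels of B cells (3.86 and 3.70 CPM) and of myeloid cells, and its part there was not tested. In myeloid cells the blood libraries themselves were far apart, at 42.4 CPM (pig 1) and 5.46 CPM (pig 2) around ileal values of 5.55 and 9.14 CPM, and no difference was called (-1.20 ± 0.97, edgeR adjusted p = 0.415).

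CCR6 was barely detected. It had 5 UMIs over all 42994 gated cells, all of them in B cells, 4 in the ileum and 1 in blood. None of 22422 T cells held one, which limits the share of T cells with a UMI to 0.0134%, for counting error only, and sets no limit on the cells that express the gene. Whether the annotation used for counting covers the 3' end of CCR6, where these libraries are read, was not tested.

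**Figure D2:**
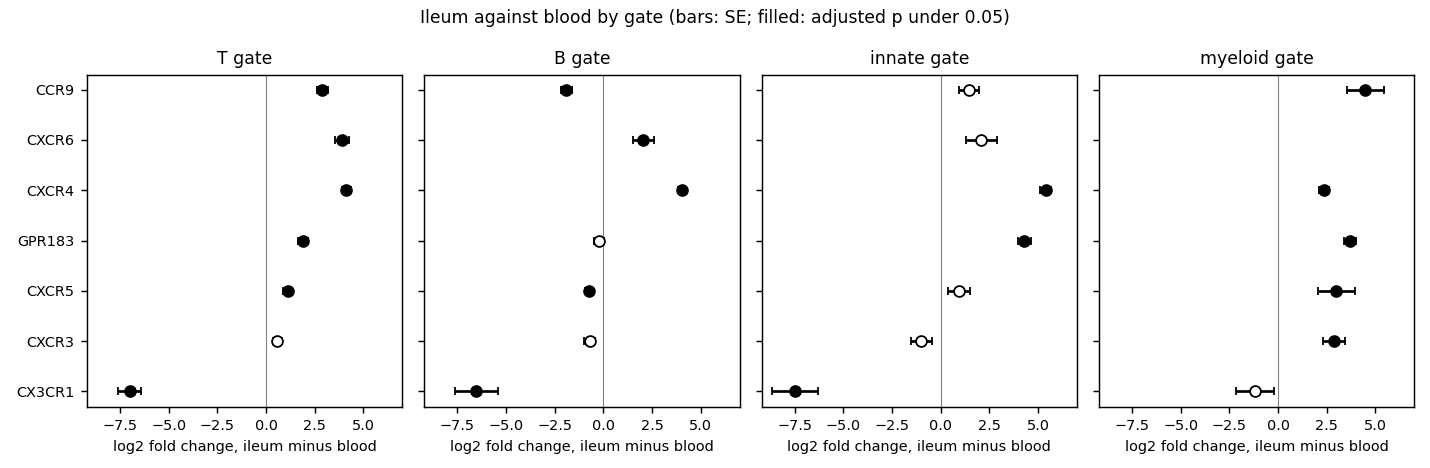
Log2 ileum-blood difference of 7 receptors in each gate (points, with bars of 1 SE, filled where the edgeR adjusted p is below 0.05); CXCR6 in myeloid cells is left out because it had 1 ileal UMI against 0. CXCR4 lies above 0 in all 4 gates, from 2.38 in myeloid cells to 5.40 in innate lymphocytes, CX3CR1 lies at -7.01 in T cells, and CCR9 lies at 2.89 in T cells against -1.91 in B cells.

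Whether the tissues differed alike in all gates was tested as the difference of 2 ileum-blood differences. T and B cells differed in CCR9 (4.80), GPR183 (2.13), CXCR5 (1.86) and CXCR3 (1.29), 4 of 7 against 19.9% of all genes in either direction and 10.4% called higher. Of these, GPR183 was lost without ileal pig 2 and CXCR3 without ileal or blood pig 2. CXCR3 was also lost without the whole ileum libraries (1.13, edgeR adjusted p = 0.133), in thinned cells (0.11) and under the CD3E gates (0.0826). B cells and innate lymphocytes differed in GPR183 (-4.52 ± 0.42), CCR9 (-3.36 ± 0.58) and CXCR4 (-1.36 ± 0.36), 3 of 7 against 7.5% in either direction and 3.69% called lower, and GPR183 kept its call with any sum left out.

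Myeloid cells differed from T cells in 4 of 7 (13.2%), from B cells in 5 of 7 (16.1%) and from innate lymphocytes in 2 of 7 (6.8%). The smaller myeloid rise of CXCR4 accounted for a value in each, 1.75 ± 0.32 against T, 1.66 ± 0.32 against B and 3.02 ± 0.39 against innate cells, the first 2 of which were lost without ileal pig 1 (edgeR adjusted p = 0.0838 and 0.0677). T cells and innate lymphocytes differed in 1 of 7 (0.667%), GPR183 at -2.39 ± 0.42 (edgeR adjusted p = 0.0223), which was lost under the CD3E gates (-2.04, edgeR adjusted p = 0.196) and with ileal pig 1 or 2 or blood pig 2 left out (up to 0.348). CX3CR1 between B and myeloid cells did not pass (-5.32, edgeR adjusted p = 0.0577) but did with the pig as a replicate block (-5.43, edgeR adjusted p = 0.0339), with DESeq2 (-5.60, DESeq2 adjusted p = 0.00184) and with no filter on low counts. The block call was lost without the whole ileum libraries (edgeR adjusted p = 0.102). Of the 42 tests 19 were called, and 14 without the whole ileum libraries.

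Within each tissue the receptors also separated the gates. In the ileum, T cells exceeded the mean of the other 3 gates in CCR9 (3.21 ± 0.23), CXCR6 (2.92 ± 0.37) and CXCR3 (2.10 ± 0.23) and were below it in GPR183 (-0.84 ± 0.22), 4 of 7 against 23.3% of all genes. B cells were higher in CXCR5 (1.74 ± 0.24) and CXCR4 (1.01 ± 0.15) and lower in CCR9 (-3.01), CXCR3 (-1.83) and GPR183 (-1.84), 5 of 7 against 41.9%. Innate lymphocytes were higher in GPR183 (2.22 ± 0.20) and CXCR4 (1.5 ± 0.16), 2 of 7 against 5.34% in either direction and 3.81% called higher. Myeloid cells were higher in CX3CR1 (4.47 ± 1.48, edgeR adjusted p = 0.0365) and lower in CCR9, CXCR6, CXCR4 and CXCR5, 5 of 7 against 28%, of which CXCR4 alone (-2.29 ± 0.20) kept its call with either ileal pig left out, the edgeR adjusted p of the other 4 reaching 0.262 to 0.493. Without the whole ileum libraries the myeloid calls in CX3CR1 (edgeR adjusted p = 0.0645), CCR9 (0.118) and CXCR5 (0.149) were lost. Ileal myeloid cells held 9 UMIs of CX3CR1 and 1 of CXCR6. The CX3CR1 call was also lost with doublets removed (edgeR adjusted p = 0.0507). In thinned cells the myeloid calls in CX3CR1, CCR9, CXCR6 and CXCR5 were all lost (edgeR adjusted p = 0.134 to 0.323). The median levels of CCR9 fell in the order T, innate, myeloid, B, with myeloid and B ranges overlapping. Those of GPR183 fell in the order innate, myeloid, T, B, with only the innate range apart from the next.

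The gate rule mattered for the innate and T comparisons in the ileum. Under the CD3E gates the innate excess in GPR183 (0.18, edgeR adjusted p = 0.731) and CXCR4 (0.23, edgeR adjusted p = 0.449) and the T cell deficit in GPR183 (-0.03, edgeR adjusted p = 0.988) were no longer called, while innate lymphocytes gained calls in CXCR6 (2.93, edgeR adjusted p = 1.82e-05) and CCR9 (1.53, edgeR adjusted p = 0.000268). CXCR5 turned its direction under those gates, from -0.38 to 0.86 in T cells (edgeR adjusted p = 0.0128) and from 0.42 to -2.86 in innate lymphocytes (edgeR adjusted p = 0.000119). GPR183 in T cells also lost its call with either ileal pig left out (edgeR adjusted p up to 0.302), and CXCR3 in B cells without the whole ileum libraries (-1.17, edgeR adjusted p = 0.0871).

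In blood the order was different. B cells led in CXCR5 (4.18 ± 0.23, edgeR adjusted p = 8.45e-09) and were also higher in CCR9 (1.84), GPR183 (1.68) and CXCR4 (0.94) and lower in CX3CR1 (-4.40), 5 of 7 against 28%. T cells were higher in CX3CR1 (2.65 ± 0.36), CXCR6 (2.49 ± 0.82), CXCR3 (1.91) and CCR9 (1.66), 4 of 7 against 22.3% in either direction and 13.6% called higher, and CXCR6 failed whichever pig of either tissue was left out (edgeR adjusted p up to 0.105). Each value is against the mean of the other gates, myeloid cells included. Median CCR9 was alike in T, B and innate cells (16.2, 16.2 and 15.9 CPM, ranges overlapping) against 0.292 CPM in myeloid cells. Median CXCR6 was higher in innate cells (3.05 CPM) than in T cells (1.74 CPM), ranges overlapping, and 0 in myeloid cells. Innate lymphocytes were higher in CX3CR1 (3.09 ± 0.40) and CXCR3 (1.35 ± 0.37), 2 of 7 against 9.24% in either direction and 6.21% called higher, CXCR3 failing without the whole ileum libraries (edgeR adjusted p = 0.0873) and without either blood pig (up to 0.438). Myeloid cells were lower in all but CXCR4, 6 of 7 against 44.7% in either direction and 20.9% called lower, with CCR9 at -5.05 ± 0.60 and CX3CR1 at -1.34 ± 0.49, the latter failing without blood pig 2 or either ileal pig (edgeR adjusted p up to 0.394). The CXCR4 value of B cells ranged from 0.56 to 1.26 over the pigs left out, with an edgeR adjusted p of 0.112 without blood pig 2.

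T cells were divided further by UMIs of CD4, CD8B and TRDC, the last with or without CD2. TRDC is the constant gene of the delta chain of the γδ receptor. The CD4, CD8B, TRDC CD2+ and TRDC CD2- subsets held 1473, 3790, 3811 and 1548 of the 22422 T-gated cells. The rest held no UMI of CD4, CD8B or TRDC, or UMIs of more than 1 of them, and fell in no subset. CD4 T cells had the most receptors changed between tissues, 6 of 7 against 10.4% of the 8241 genes tested, followed by CD8B T cells with 5 of 7 (13%), TRDC CD2+ cells with 4 of 7 (15.7%) and TRDC CD2- cells with 4 of 7 (10.7%). CCR9, CXCR4 and CXCR6 rose and CX3CR1 fell in all 4 subsets. These were 19 calls in all, and 9 and 8 were made without ileal pig 1 and without ileal pig 2.

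CCR9 stood highest in the TRDC subsets of ileal T cells in both pigs. TRDC CD2+ cells had 190 and 195 CPM and TRDC CD2- cells 170 and 185 CPM in the ileum, above CD8B T cells (110 and 102 CPM) and CD4 T cells (65.7 and 93.1 CPM). The order of the pig sums was alike in both pigs, but it joined dissections that differed. CD4 T cells stood above CD8B T cells in both non-PP libraries (129 against 117 and 166 against 105 CPM), below them in both PP libraries (50.6 against 113 and 45.3 against 93.1 CPM) and at a like level in whole ileum pig 2 (108 against 107 CPM). No subset passed against the mean of the other 3 (CD4 -0.99 ± 0.38, edgeR adjusted p = 0.114), and with the pig as a replicate block CD4 T cells did (-1.01, edgeR adjusted p = 0.0252). In blood the same subsets lay between 8.88 and 61.3 CPM. The rise was 3.76 ± 0.58 in TRDC CD2- cells (edgeR adjusted p = 0.00119) and 2.14 ± 0.46 in CD8B T cells (edgeR adjusted p = 0.00792). Without 1 or other ileal pig the edgeR adjusted p of CCR9 went up to 0.28 in CD4, 0.17 in CD8B, 0.0878 in TRDC CD2+ and 0.0535 in TRDC CD2- cells.

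GPR183 split the T subsets. CD4 T cells carried 380 and 480 CPM in the ileum and 79.6 and 65.2 CPM in blood (2.56 ± 0.27, edgeR adjusted p = 6.43e-05), and CD8B T cells 71.0 and 95 against 11.9 and 9.32 CPM (2.98 ± 0.30, edgeR adjusted p = 2.84e-05). TRDC CD2- cells were high in both tissues, with 129 and 132 CPM in the ileum and 171 and 186 CPM in blood (-0.41 ± 0.26, edgeR adjusted p = 0.385). TRDC CD2+ cells held 47.6 and 60.0 CPM in the ileum and 20.5 and 46.0 CPM in blood, not called at 0.83 ± 0.29 (edgeR adjusted p = 0.0738) but called with the replicate block (0.86, edgeR adjusted p = 0.0171). Among ileal subsets CD4 T cells stood above the others by 2.33 ± 0.19 (edgeR adjusted p = 5.12e-06) and the value of TRDC CD2+ cells was -1.65 ± 0.22 (edgeR adjusted p = 0.00115, and up to 0.274 without an ileal pig).

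CXCR5 separated CD4 T cells from the other T subsets. It stood at 55.1 and 25.6 CPM in ileal CD4 T cells and at 7.53 and 5.47 CPM in those of blood (2.66 ± 0.52, edgeR adjusted p = 0.00521, and up to 0.154 with a pig left out), while the other ileal subsets lay between 0.765 and 3.49 CPM. Of 373 CXCR5 UMIs in ileal T-gated cells, CD4, CD8B, TRDC CD2+ and TRDC CD2- cells held 113, 14, 18 and 5. Most thus lay in T-gated cells of no subset. In the ileum CD4 T cells exceeded the other subsets in CXCR5 (4.45 ± 0.38, edgeR adjusted p = 9.91e-06), GPR183, CXCR6 (1.48 ± 0.34, edgeR adjusted p = 0.0148) and CXCR4 (1.06 ± 0.31, edgeR adjusted p = 0.0377), 4 of 7 against 12.6% in either direction and 6.73% called higher. CXCR6 and CXCR4 lost this call with either ileal pig left out (edgeR adjusted p up to 0.413 and 0.578). No receptor passed in CD8B (background 1.49%) or TRDC CD2- cells (0.898%) and 1 of 7, GPR183, did in TRDC CD2+ cells (4.08%). With the pig as a replicate block CD8B T cells were lower in CXCR4 (-1.42, edgeR adjusted p = 0.00287) and GPR183 (-0.81, edgeR adjusted p = 0.00558) and CD4 T cells higher in CXCR3 (0.89, edgeR adjusted p = 0.0367).

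CX3CR1 fell in every T subset of the ileum. Blood CD8B T cells held 139 and 179 CPM and ileal ones 0.544 and 1.08 CPM (-7.60 ± 0.79, edgeR adjusted p = 3.74e-05). TRDC CD2+ cells held 277 and 45 UMIs in blood (178 and 57.5 CPM) and 2 and 0 UMIs in the ileum, a blood-to-ileum ratio of 718 with a counting interval of 197 to 5956. CD4 T cells held 74.2 and 52.6 CPM in blood and 1.33 and 7.68 CPM in the ileum (-3.91 ± 0.81, edgeR adjusted p = 0.0078, and up to 0.212 without an ileal pig). Of CXCR6, TRDC CD2- cells had 20 and 5 UMIs in the ileum and 0 and 0 in blood, at least 5.76-fold higher against a floor of 3 counts over both blood libraries, a call lost with any pig left out (edgeR adjusted p up to 0.298). CXCR4 lost its call in CD8B (edgeR adjusted p = 0.0545) and TRDC CD2+ cells (up to 0.0644) without an ileal pig, and CXCR6 in the same subsets (up to 0.0998 and 0.16).

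**Figure D3:**
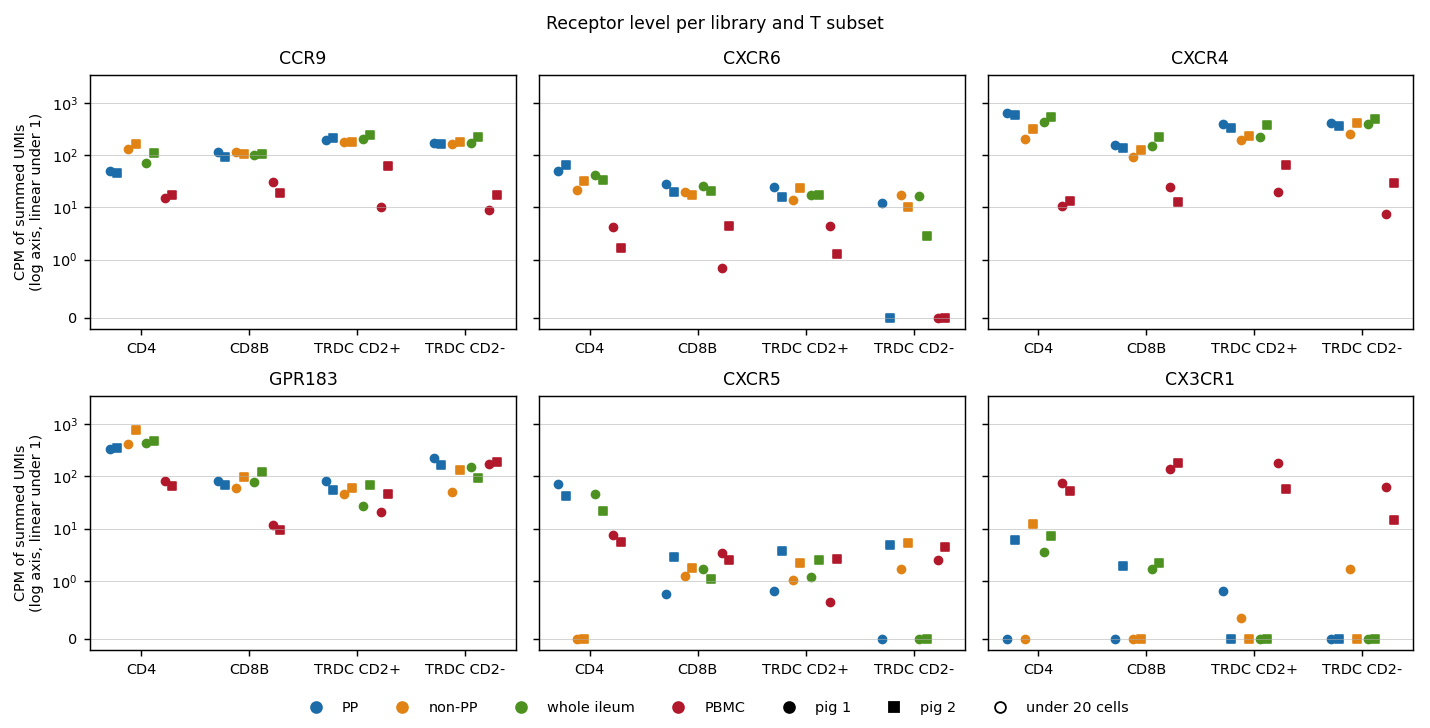
Level of 6 receptors (vertical axis, CPM of summed UMIs, log scale, linear under 1) in CD4, CD8B, TRDC CD2+ and TRDC CD2- T cells, with 1 point per library, colour for the dissection or PBMC, shape for the pig and hollow points for under 20 cells. Blood lies below the ileum for CCR9 and CXCR4 and above it for CX3CR1 in all 4 subsets, while for GPR183 in TRDC CD2- cells the blood libraries, summed at 171 and 186 CPM, lie among the ileal ones.

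B cells of the ileum were mostly cycling, and the receptors are given here by library for cycling cells (at least 2 UMIs of genes such as TOP2A, CDK1 and TYMS) and ASC, as a description without a test. Cycling cells made up 50.8% to 58.3% of the B gate in PP and whole ileum libraries and 14.2% and 13.4% in blood, and non-PP tissue had too few B cells to be described. CXCR4 in cycling cells was 426 (pig 1) and 448 CPM (pig 2) in PP, 472 and 618 CPM in whole ileum, and 26.1 and 20.1 CPM in blood. All 4 ileal values lay far above both blood values.

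GPR183, by contrast, was 40.1 and 28.6 CPM in cycling B cells of PP, 31.8 and 29.6 CPM in those of whole ileum, and 84.2 and 66.0 CPM in blood. CXCR5 was 21.7 and 18.3 CPM in PP, 18.2 and 19.1 CPM in whole ileum and 26.1 and 28.2 CPM in blood. For both receptors the blood values lay above the ileal ones without overlap. CCR9 in cycling B cells was likewise higher in blood, at 16 and 19.3 CPM, than in PP and whole ileum, at 2.34 to 4.02 CPM. ASC of the same 4 ileal libraries held 103 to 152 CPM of GPR183, above the cycling cells of each of them, and 112 to 170 CPM of CXCR4 and 4.67 to 8.85 CPM of CXCR5, below the cycling cells of each of them. ASC of blood held 60.9 and 59.4 CPM of GPR183 and 17.8 and 18.3 CPM of CXCR4, on 37 cells each.

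The dissections asked where within the ileum the receptors lay. In the fit of all gates, 4 receptors (CCR9, CXCR4, CXCR3 and GPR183) passed the filter on low counts and 0 of 4 were called between PP and non-PP in T cells (background 4.07%), B cells (0.145%), innate lymphocytes (0.108%) or myeloid cells (0.47%), by edgeR. With the pig as a replicate block 2 were called, both in T cells (CXCR4 1.10, edgeR adjusted p = 0.0316, and GPR183 0.96, edgeR adjusted p = 0.041), and DESeq2 called 3. Non-PP tissue held few B cells, 31 in pig 1 and 60 in pig 2, and the 18 myeloid cells of non-PP pig 1 were left out of the fit. No receptor differed between T and B cells in this contrast, 0 of 4 against 0.632%.

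T cells were therefore fitted alone over 9812 genes, an analysis added after seeing the data. CXCR5 was 17.4 and 16.7 CPM in PP, 0.791 and 2.4 CPM in non-PP and 11.2 and 8.02 CPM in whole ileum (PP against non-PP 3.44 ± 0.40, edgeR adjusted p = 0.00967). CXCR4 was 430 and 349 CPM in PP and 164 and 193 CPM in non-PP (1.15 ± 0.19, edgeR adjusted p = 0.0301). Neither pair overlapped, and 2 of 7 receptors were called against 2.82% of genes. GPR183, at 207 and 181 CPM in PP and 74.1 and 124 CPM in non-PP, was not called (1.01 ± 0.28, edgeR adjusted p = 0.132). It was called with the replicate block (1.06, edgeR adjusted p = 0.0207, 6.18% of all genes called) and with DESeq2 (1.02, DESeq2 adjusted p = 0.0131, 4.36%). Free RNA of all 3 differed in the same direction. It held 368 and 415 CPM of CXCR4 in PP and 118 and 142 CPM in non-PP. For CXCR5 it held 14.9 and 11.8 against 0 and 0.272 CPM, and for GPR183 83.5 and 87.2 against 26.8 and 49.3 CPM. In PP pig 2 free RNA of CXCR4 lay above the T cell level. The part of free RNA in these differences was not tested. Leaving out either PP library left 0 calls, and CXCR4 failed without the whole ileum libraries (edgeR adjusted p = 0.0594).

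The T cells of the dissections were not the same mixture. Of T-gated cells, 11.5% and 8.91% in PP and 1.43% and 2.54% in non-PP held a CD4 UMI and none of CD8B or TRDC. In whole ileum these shares were 6.39% and 7.65%. Within CD4 T cells, also fitted after seeing the data, 3 of 6 receptors were called against 1.39% of 7063 genes. CCR9 was lower in PP, at 50.6 and 45.3 CPM against 129 and 166 CPM in non-PP and 71.7 and 108 CPM in whole ileum (-1.68 ± 0.25, edgeR adjusted p = 0.00078). CXCR4 was higher, at 640 and 577 CPM against 208 and 313 CPM (1.17 ± 0.28, edgeR adjusted p = 0.0432). The non-PP levels of CCR9 rested on 18 and 41 UMIs in 48 and 84 cells. Free RNA of CCR9, CXCR4 and CXCR5 differed in the same direction as each receptor, and its part in CD4 T cells was not tested. For CCR9 it held 24.3 and 26.1 CPM in PP against 34.0 and 43.8 CPM in non-PP. CXCR5 had 57 and 21 UMIs in PP and 0 in both non-PP libraries, at least 7.62-fold higher against a floor of 3 counts over them. These groups lay apart in both pigs, and 1 or 2 calls were left whenever a PP or non-PP library was left out.

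GPR183 went the other way within CD4 T cells than over all T cells, at 330 and 341 CPM in PP and 422 and 780 CPM in non-PP, without passing (-0.90 ± 0.37, edgeR adjusted p = 0.332). In CD8B (background 0.113%), TRDC CD2+ (0.0566%) and TRDC CD2- cells (0.0991%) 0 of 6 receptors were called by edgeR. CXCR4 in TRDC CD2+ cells was at 0.81 ± 0.26 (edgeR adjusted p = 0.5). GPR183 in TRDC CD2- cells was 223 and 163 CPM in PP and 51.1 and 132 CPM in non-PP. With the replicate block and without the whole ileum libraries, edgeR called both (CXCR4 0.82, adjusted p = 0.00893, and GPR183 1.20, adjusted p = 0.0463). The share of all genes called was then 1.25% in TRDC CD2+ and 1.14% in TRDC CD2- cells. GPR183 in CD4 T cells was also called in that setting (-0.88, edgeR adjusted p = 0.0376), against 2.47% of all genes.

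**Figure D4:**
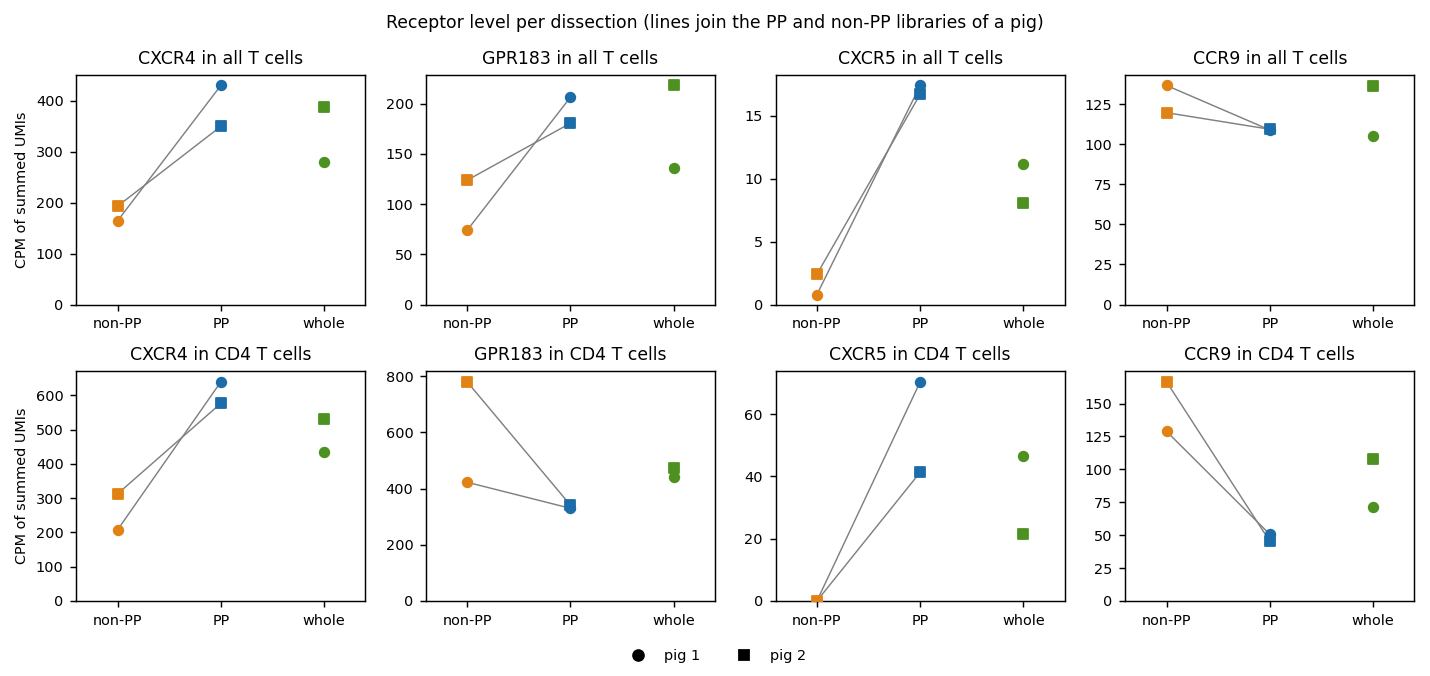
Level of CXCR4, GPR183, CXCR5 and CCR9 (vertical axis, CPM of summed UMIs) in all T cells and in CD4 T cells by dissection, with a point per library, shape for the pig and lines joining the PP and non-PP libraries of a pig. In CD4 T cells CCR9 is 50.6 and 45.3 CPM in PP against 129 and 166 CPM in non-PP, and CXCR5 is 0 in both non-PP libraries.

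CXCR5 was carried by few CD4 T cells. It was found in 42 of 231 CD4 T cells of PP pig 1, 20 of 182 of PP pig 2, 19 of 180 and 7 of 135 in the whole ileum, and in 0 of the 132 non-PP CD4 T cells, which allows a share of up to 2.27%. CD4 T cells with a CXCR5 UMI held 748 and 745 CPM of PDCD1, the PD-1 receptor of follicular helper cells, in PP, against 405 and 391 CPM in those without. In the whole ileum libraries these values were 1159 and 599 CPM against 296 and 183 CPM. PDCD1 was thus higher with CXCR5 in 4 of 4 libraries, a comparison of cells within libraries that carries no test. GPR183 was lower in the CXCR5-bearing cells of PP (185 and 222 against 367 and 357 CPM) and of whole ileum pig 2 (342 against 484 CPM), but not of whole ileum pig 1 (537 against 433 CPM).

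In blood T cells CX3CR1 was rarely found together with GPR183 or CCR9. After each cell was thinned to the minimum UMI number, 0 of 774 CX3CR1-bearing T cells in PBMC pig 1 and 2 of 580 in PBMC pig 2 held GPR183, against 5.68% and 6.86% of those without CX3CR1. CX3CR1 was found in 1 of 51 and 1 of 75 CCR9-bearing blood T cells, against 22.1% and 16.6% of the others. In ileal T cells CXCR5 was more frequent with CXCR4 than without it in the 4 libraries that held Peyer's patches, at 3.78% against 1.89% and 5.84% against 1.66% in PP and 3.48% against 0.70% and 2.57% against 0.66% in whole ileum. Within CD4 T cells of PP the same shares were 11.6% against 11% and 4.17% against 6.36%. Cells share a library and differ in subset, and the T gate could hold innate lymphocytes, so these shares are a description.

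Of 29 further chemoattractant receptors named in the matrices, 23 were tested, and in T cells 5 were higher and 9 lower in the ileum, against 12.2% of all genes called higher and 9.64% called lower. The counts were 3 and 7 in B cells (17.4% and 17% of all genes), 3 and 5 in innate lymphocytes (3.6% and 3.57%) and 6 and 4 in myeloid cells (12.8% called higher and 23.9% in either direction). Their median log2 difference was -0.57 in T cells, -0.90 in B cells, 0.26 in innate lymphocytes and 0 in myeloid cells, against 0.04, 0.02, -0.01 and 0 over all genes, so that in innate lymphocytes the median and the larger count pointed in opposite directions. S1PR5, a sphingosine phosphate receptor that serves egress of natural killer cells, behaved like CX3CR1, with 99.8 and 71.3 CPM in blood T cells and 0.678 and 0.544 CPM in ileal ones (-7.08 ± 0.30, edgeR adjusted p = 1.41e-08). S1PR2, which confines germinal centre B cells, was 89.1 and 109 CPM in ileal B cells and had 2 UMIs in blood B cells (9.03 ± 0.37, edgeR adjusted p = 3.11e-09). CCR2, the receptor that brings monocytes out of the marrow, was 144 and 174 CPM in blood myeloid cells against 1.85 and 3.05 CPM in ileal ones (-5.84 ± 0.68, edgeR adjusted p = 3.84e-05).

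The remaining receptors named by size were fewer in UMIs. CCR3 was lower in ileal T cells (-5.61 ± 0.44, edgeR adjusted p = 1.73e-06) and had 18 UMIs in blood and 0 in ileal innate lymphocytes. CCR1 was lower in ileal B cells (-5.06 ± 0.56, edgeR adjusted p = 1.15e-05, 9 UMIs against 61), and C5AR1, the complement C5a receptor, in ileal T cells on 1 UMI against 20. CCR10 had 29 UMIs in ileal myeloid cells against 1 in blood, and CCR8 had 3 against 0.

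Ligand genes reached their highest levels in epithelial, myeloid and stromal cells, the last on few cells. CCL25, the ligand of CCR9, stood at 1189 CPM and CCL20, that of CCR6, at 529 CPM in the 360 epithelial cells of the ileum, and both had a UMI there in 6 of 6 ileal libraries. In ileal T cells CCL25 was 8.63 CPM. CXCL10, a ligand of CXCR3, was 3127 and 6089 CPM in blood myeloid cells against 288 and 333 CPM in ileal ones (-3.74 ± 0.87, edgeR adjusted p = 0.00642), whereas CXCL9 was higher in ileal myeloid cells, at 49.9 and 21.3 CPM against 2.65 and 4.87 CPM (3.22 ± 0.63, edgeR adjusted p = 0.00212). CXCL12, the ligand of CXCR4, had 1 UMI in the 13 ileal stromal cells, and CX3CL1 had 0 UMIs in every gate. The same stromal cells held CXCL10 at 2676 CPM (115 UMIs), CXCL9 at 233 CPM (10 UMIs) and CH25H at 93.1 CPM (4 UMIs). CXCL11 had 18 UMIs in blood and 7 in ileal myeloid cells.

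Of 7 ligand genes tested, 2 were higher and 0 lower in ileal T cells (21.8% of all genes called in either direction), 4 and 1 in B cells (34.4%), 2 and 1 in myeloid cells (23.9%), and none in innate lymphocytes (7.17%) by edgeR. The oxysterol enzyme CH25H, which starts the synthesis of the GPR183 ligand, rose in T cells (2.71 ± 0.55, edgeR adjusted p = 0.00395), B cells (4.85 ± 0.67, edgeR adjusted p = 0.000144) and myeloid cells (3.44 ± 0.87, edgeR adjusted p = 0.0126) of the ileum, in B cells from 2 UMIs in blood to 340. CYP7B1 had 1 UMI in all, in blood myeloid cells, and HSD3B7, which breaks this ligand down, was 48.4 CPM in ileal and 40.5 CPM in blood myeloid cells. CCL20 had 218 UMIs in ileal and 0 in blood T cells, and 116 and 0 in B cells. Its ileal levels there were 4.81 CPM in T cells and 1.89 CPM in B cells, and the part of free RNA was not tested.

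Of 32 signalling genes tested, 4 were higher and 10 lower in ileal T cells, 5 and 16 in B cells, 4 and 10 in innate lymphocytes and 5 and 9 in myeloid cells. The shares of all genes called higher and lower were those given for the further receptors. The medians of the signalling genes were -0.25, -0.49, -0.33 and -0.02 against 0.04, 0.02, -0.01 and 0 over all genes. Most of those called higher were regulators of G-protein signalling, which shorten the receptor signal, and RGS1, RGS2 and RGS13 were called higher in all 4 gates. The others were RGS16 in T, B and innate cells, RGS18 and GNG2 in myeloid cells and ELMO1 in B cells, all of these counted after their values were seen. RGS1 was 1128 and 1069 CPM in ileal T cells and 41.6 and 41.1 CPM in blood (4.74 ± 0.30, edgeR adjusted p = 1.56e-07), and 502 and 510 CPM against 1.85 and 2.35 CPM in B cells (7.77 ± 0.37, edgeR adjusted p = 8.29e-09). RGS1 was also higher in ileal innate lymphocytes (4.75 ± 0.32) and myeloid cells (6.21 ± 0.34), with no overlap of the tissues in any gate. RGS13, a germinal centre gene, was 94.3 and 133 CPM in ileal B cells and had 2 UMIs in blood (9.23 ± 0.47, edgeR adjusted p = 5.13e-08). Outside B cells its calls rested on 89 ileal and 2 blood UMIs in T cells, 12 and 0 in innate lymphocytes and 5 and 0 in myeloid cells. The part of free RNA in these was not tested. RGS16 rose in T (5.03 ± 0.43) and B cells (4.69 ± 0.40) and had 51 UMIs in ileal innate lymphocytes against 0 in blood. RASGRP2, an activator of the integrin switch RAP1, was lower in ileal myeloid cells (-3.10 ± 0.42, edgeR adjusted p = 0.000134).

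The genes most like each receptor in level were found by Pearson's r of log2(CPM + 10) over 60 sums of subsets and libraries, which share libraries, pigs and preparation. CXCR4 was closest to EIF1 (r = 0.94), CREM (0.90) and PPP1R15A (0.87). CCR9 was closest to SLC11A2 (0.90), PIK3R1 (0.81) and PDE4D (0.81), CX3CR1 to KLRG1 (0.88), S100A1 (0.81) and FLNA (0.80), and CXCR6 to LAG3 (0.85), ICOS (0.79) and NDFIP2 (0.77). CXCR3 was closest to IFNG (0.80), CD6 (0.80) and TIGIT (0.77), CXCR5 to DAPP1 (0.68), ZC3H12D (0.64) and C16orf87 (0.62), and GPR183 to ZC3H12A (0.77), KDM6B (0.76) and NFKBIA (0.73). CREM, PPP1R15A, ZC3H12A and KDM6B are commonly induced by cell stimulation, and their part in the CXCR4 and GPR183 differences was not tested.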

How the data were processed

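Per the labels, the 8 libraries were made with 10x Genomics version 2 chemistry, and the study's methods name a modified Ensembl 97 annotation of Sscrofa 11.1. Cell Ranger 4.0.6 stands in the submitters' processing notes. What the authors deposited is, for every library, an unfiltered table of UMI counts over 25880 genes and 737280 barcodes, made before their steps against ambient RNA and poor cells. Symbols came from the matrices for 17733 genes, a name table for 976 and a supplement for 3, and 7168 had none. The 8 receptors and all gene lists were chosen with earlier results of these data known.

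Cells passing the study's limits were gated on summed marker UMIs, and doublets scored over 0.25 by scanpy 1.11.5 (Scrublet, expected rate 0.07; 2.75% to 3.93% of cells) were kept and removed as an alternative. Of simulated doublets 22.3% to 51.6% passed that score, so undetected doublets are possible. Counts were summed per gate, tissue or dissection and pig (at least 20 cells), and tested with edgeR 4.0.16 in R 4.3.3 (filterByExpr, TMM, quasi-likelihood, Benjamini-Hochberg over all genes tested, adjusted p below 0.05). DESeq2 1.42.0 was an alternative. Standard errors are the log2 fold change over the root of F. The named genes were the 8 receptors, the 3 called genes of each list with the largest change per gate, all ligands, and the 3 genes most like each receptor. Intervals are exact (95% Clopper-Pearson) and cover counting error only, with a floor of 3 counts. Sum-based fits were tested on simulated data. The tests planned between B cell stages are not reported here.

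Samples of a pig carry its number in the labels, so the animal pairs them as labelled. Deviations of pig 2 from pig 1 correlated at 0.019 to 0.502 (median 0.124) over 28 pairs of sums in the gate fit and at 0.0993 to 0.575 in the T subset fit. In the dissection fit they ran from -0.101 to 0.724 (median 0.0466, 17 of 55 pairs over 0.1), with T cells of PP at 0.724 with non-PP but at -0.0462 with whole ileum. As labelled, the libraries of a pig are repeated samples of that animal and p-values rest on 2 animals. The main fits had no pig term and took the sums of a pig as separate columns. The gate and T subset fits had 16 sums and 8 residual degrees of freedom, the dissection fit 23 and 11. Their spread was pooled over gates, subsets or dissections of the same animals, so a small p-value does not measure the spread between animals alone. The library labelled whole ileum of pig 1 went against its label, yet the ileal sums and the replicate block place it with pig 1, so the block was also fitted without the whole ileum libraries.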

Additional observations from a re-analysis of the deposited data

Results flagged for a closer look

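In 19 cases the ileum-blood difference of a receptor differed between 2 cell gates by a test of that difference (edgeR quasi-likelihood interaction contrast, Benjamini-Hochberg adjusted p below 0.05, 42 tests). For T minus B cells the values were 4.80 for CCR9, 1.86 for CXCR5, 1.29 for CXCR3 and 2.13 for GPR183, on the log2 scale. This CXCR3 value missed the threshold without the whole ileum libraries (edgeR adjusted p = 0.133). For T minus innate cells it was -2.39 for GPR183. For T minus myeloid cells the values were -5.81 for CX3CR1, 1.75 for CXCR4, -2.30 for CXCR3 and -1.78 for GPR183. For B minus innate cells they were -3.36 for CCR9, -1.36 for CXCR4 and -4.52 for GPR183.

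For B minus myeloid cells the values were -6.38 for CCR9, 1.66 for CXCR4, -3.75 for CXCR5, -3.59 for CXCR3 and -3.91 for GPR183. For innate minus myeloid cells they were 3.02 for CXCR4 and -3.88 for CXCR3. Myeloid CCR9, CXCR5 and CXCR3 rest on 11, 4 and 18 ileal UMIs. All the B minus myeloid values for CCR9, CXCR4, CXCR5 and CXCR3 missed the threshold in cells thinned to equal depth (edgeR adjusted p up to 0.342). Without the whole ileum libraries CXCR3 missed it for T minus myeloid (edgeR adjusted p = 0.224), B minus myeloid (0.0512) and innate minus myeloid cells (0.0545). CXCR5 missed it there for B minus myeloid cells (0.0584).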

How the results depend on the processing

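Of 3132 recalculated values of single receptors, 2839 kept their side of the threshold (113 of them uncalled either way and of the other sign), 173 lost a call, 118 gained one and 2 called values turned their sign, both under the CD3E gates (CXCR5 against the other ileal gates, 0.86 in T cells and -2.86 in innate lymphocytes). The calls on differences between gates went from 19 to 9 with thinned cells and to 9 to 19 with a sum left out. Between PP and non-PP by gate 0 calls became 3 with DESeq2, 5 with no filter on low counts, 2 with the pig as a replicate block (also without the whole ileum libraries), 3 with stricter gates, 1 with thinned cells and 2 with the CD3E gates, and the difference between T and B cells kept 0. The count of T subset against the others went from 5 to 8 with DESeq2, 15 with no filter, 9 with the replicate block, with and without the whole ileum libraries, and 2 to 12 with a sum left out, and that of T subsets between tissues from 19 to 8 to 20. T cells alone, PP against non-PP, gave 2 calls (2.82% of all genes) and 1 without the whole ileum libraries (0.86%). With the replicate block and without those libraries they gave 4, in a fit with 1 residual degree of freedom that called 15.9% of all genes. The T subsets gave 3, and 6 with the replicate block and without the whole ileum libraries. The share of all genes called in CD4 T cells went from 1.39% to 2.47% there. Without the whole ileum libraries 15 values lost a call and 217 stayed as they were. CX3CR1 of blood myeloid cells against the other blood gates was among the 15 (edgeR adjusted p = 0.0508). With the pig as a replicate block 11 values gained a call, 0 lost one and 222 stayed as they were. With the block and without the whole ileum libraries, an alternative added after seeing the data, 13 gained a call and 9 lost one. The causes of these changes were not tested. With 2 animals, and 31 and 60 B cells in non-PP tissue, small differences could not be detected.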

Other observations

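In 5 of 6 ileal libraries no TRDC CD2+ cell held both CCR9 and CXCR6 after thinning to equal depth. CXCR3-bearing ileal T cells held GPR183 more often than other ileal T cells (23.6% against 13.1% over all ileal libraries). In thinned ileal T cells, 3 of 1734 CCR9-bearing cells held CXCR5 (0.173%), against 1.28% of the others. These are shares of cells in pooled libraries, given as values without a test.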
